A study of Homo sapiens with 22 samples.

Results

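The loci of 10 genes that mark the mesenchymal or the epithelial state of a carcinoma cell were examined for binding of FOXA2, JUN and FOSL1 and for open and marked chromatin in 3 human prostate cancer cell lines. The genes were listed by name. 7 of them, CD44, VIM, SNAI2, ZEB1, ZEB2, TWIST1 and CDH2, are called mesenchymal here, and 3, CDH1, GRHL2 and OVOL2, are called epithelial. They are 10 of the 20163 protein-coding genes of the GENCODE annotation on the hg19 build, and every region within 50 kb of a gene body was taken as lying at that locus. The windows were longer than those of most genes, with a median of 200 kb against 127 kb over all protein-coding genes, so numbers of regions are set beside numbers per Mb.

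PC3 cells come from a bone metastasis and lack the androgen receptor, NCI-H660 cells are of neuroendocrine type, and LNCaP cells are luminal and express the receptor. ChIP-seq, which sequences DNA recovered with an antibody, profiled FOXA2 in PC3 cells given vehicle, ORY-1001 at 10 µM or C12 at 0.5 µM, and in NCI-H660 cells given vehicle or ORY-1001 at 10 µM, all for 4 h. The compounds are inhibitors of LSD1, an enzyme that removes methyl groups from lysine. JUN was profiled in PC3 and NCI-H660 under a control siRNA (siNC) or one that silences FOXA2 (siFOXA2), and FOSL1 in PC3 only. H3K27ac was profiled in PC3, H3K4me2 in NCI-H660, and open chromatin by ATAC-seq in both lines. In LNCaP, JUN was profiled under siNC, under an siRNA against FOXA1 (siFOXA1), and in cells stably expressing FOXA2 (FOXA2OE) or labelled as expressing the mutant FOXA2K265R, and FOXA2 was profiled in FOXA2OE. These last cells were made with lentivirus and puromycin selection. A further pair of vehicle PC3 FOXA2 ChIPs, with no antibody on the label, is called the other FOXA2 ChIPs. The data were 22 lists of enriched regions with 1 list per group apart from that pair, so no condition had a replicate check, no p-value was computed, and intervals are Wilson 95% intervals for counting error alone. The depth behind the lists was unknown. Lists held from 1538 to 210960 regions. Forkhead motifs were in 77.3% of PC3 and 75.9% of NCI-H660 vehicle FOXA2 regions, and AP-1 motifs in 49.5% of PC3 siNC JUN regions. A few lists stood apart from their labels on this measure. AP-1 motifs were in 2.38% of FOXA2OE JUN regions against 3.09% of windows 2 kb away, in 4.09% against 2.97% for FOXA2K265R JUN, in 4.99% against 3.01% for NCI-H660 siFOXA2 JUN, and in 2.41% against 2.49% for PC3 siFOXA2 FOSL1. The FOXA2OE FOXA2 list, which was exactly 2500 regions long and had no scores, held forkhead motifs in 26.4% of regions against 31.0% nearby.

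In the epithelial-mesenchymal transition, cells give up junctions built on E-cadherin, the product of CDH1, and take on intermediate filaments of vimentin (VIM) and N-cadherin (CDH2). SNAI2, ZEB1, ZEB2 and TWIST1 encode transcription factors that repress CDH1 and drive the transition, whereas GRHL2 and OVOL2 encode transcription factors that hold the epithelial state and oppose ZEB1. CD44 encodes a hyaluronan receptor of the cell surface used as a stem-like and mesenchymal marker. FOXA2 is a pioneer factor, which can bind its forkhead motif in closed chromatin, and JUN and FOSL1 are subunits of the AP-1 dimer.

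At these loci 10 PC3 FOXA2 regions overlapped a PC3 JUN region, and 4 of those held an AP-1 and a forkhead motif within 100 bp of the region centre. The sequences of 3 of them are shown first because they place both motifs in DNA listed for both factors. Motifs were searched on both strands as TGACTCA or TGAGTCA for AP-1, and as TNTTTNN for forkhead, where each N but the last is A or G and the last is C or T. No stretch of 7 bases can match both. All sequences are hg19, plus strand, 5′ to 3′, with the motifs in capitals. The CD44 window piece is cut to the AP-1 site because it lies in the untranslated region of the neighbouring gene SLC1A2.
CD44 locus, chr11:35282276-35282302: ctgtcatcacTGACTCAcaagagctcc
CDH2 intron, chr18:25576930-25577069: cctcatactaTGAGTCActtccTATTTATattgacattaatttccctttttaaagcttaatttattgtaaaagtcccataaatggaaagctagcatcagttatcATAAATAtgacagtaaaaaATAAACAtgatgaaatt
ZEB1 intron, chr10:31679882-31679975: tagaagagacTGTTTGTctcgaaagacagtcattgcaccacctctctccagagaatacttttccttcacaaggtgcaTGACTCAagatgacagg
A further 3 were chosen after their values were seen, because the contrasts below turn on them. The first is the AP-1 site of the PC3 JUN region in the CD44 intron, the second the paired forkhead motifs of the CDH1 intron region found in 13 lists, and the third the NCI-H660 JUN region of the CDH1 intron, which held a forkhead and an AP-1 motif.
CD44 intron, chr11:35188385-35188411: cgggagagacTGAGTCActcaagactc
CDH1 intron, 7.67 kb from the start, chr16:68778837-68778877: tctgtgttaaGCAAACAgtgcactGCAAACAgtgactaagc
CDH1 intron, 19.1 kb from the start, chr16:68790242-68790309: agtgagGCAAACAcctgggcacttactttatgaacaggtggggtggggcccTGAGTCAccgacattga

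The state of each promoter, taken as 1 kb on either side of the start of the canonical transcript, was asked first. In PC3 an H3K27ac region, the mark of active promoters and enhancers, lay at the start of all 7 mesenchymal genes and of 0 of the 3 epithelial genes, where 65.1% of all protein-coding genes had one. Scores, read as 10 times the −log10 q-value of the peak caller, were 2858 at VIM and 2373 at CD44, between 894 and 1253 at SNAI2, ZEB1, TWIST1 and CDH2, and 34 at ZEB2. PC3 ATAC regions lay at 9 of the 10 starts against 73.4% of genes, with scores of 254 to 1786 at the mesenchymal genes, 80 at CDH1, 77 at GRHL2 and none at OVOL2. Within 1 kb of the start the epithelial genes thus had low-scoring PC3 ATAC regions or none, and no H3K27ac region. At GRHL2 this depends on the 1 kb limit. A PC3 H3K27ac region beyond that limit overlapped the place chr8:102505359-102506556, which is centred 1.29 kb past the start. Other promoter limits were not tested. In a wider list of 14 other mesenchymal and 18 other epithelial genes the split was not seen, since H3K27ac lay at 10 and 12 of the starts, respectively.

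In NCI-H660 the order of the scores ran the other way at several genes. ATAC regions lay at 8 starts against 71.4% of genes, and the highest scores were 3536 at GRHL2 and 1665 at OVOL2, followed by 749 at SNAI2, 533 at ZEB1, 525 at TWIST1, 505 at CDH2, 404 at CDH1 and 129 at CD44. VIM and ZEB2 had none within 1 kb. NCI-H660 ATAC regions did overlap places centred 1.28 kb past the VIM start and 2.90 kb past the ZEB2 start. H3K4me2, a mark of promoters and enhancers in active or poised chromatin, lay at 9 starts against 71.5% of genes, with ZEB2 the exception and scores from 162 at ZEB1 to 672 at GRHL2. H3K4me2 at a start therefore did not separate the gene groups in this line. Among the wider genes ATAC and H3K4me2 regions each lay at 9 of the 14 mesenchymal starts and 18 of the 18 epithelial starts. The marks differ between the lines, so the PC3 and NCI-H660 promoters can be set side by side for ATAC only, and scores are not on a common scale between libraries of unknown depth.

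**Figure D1:**
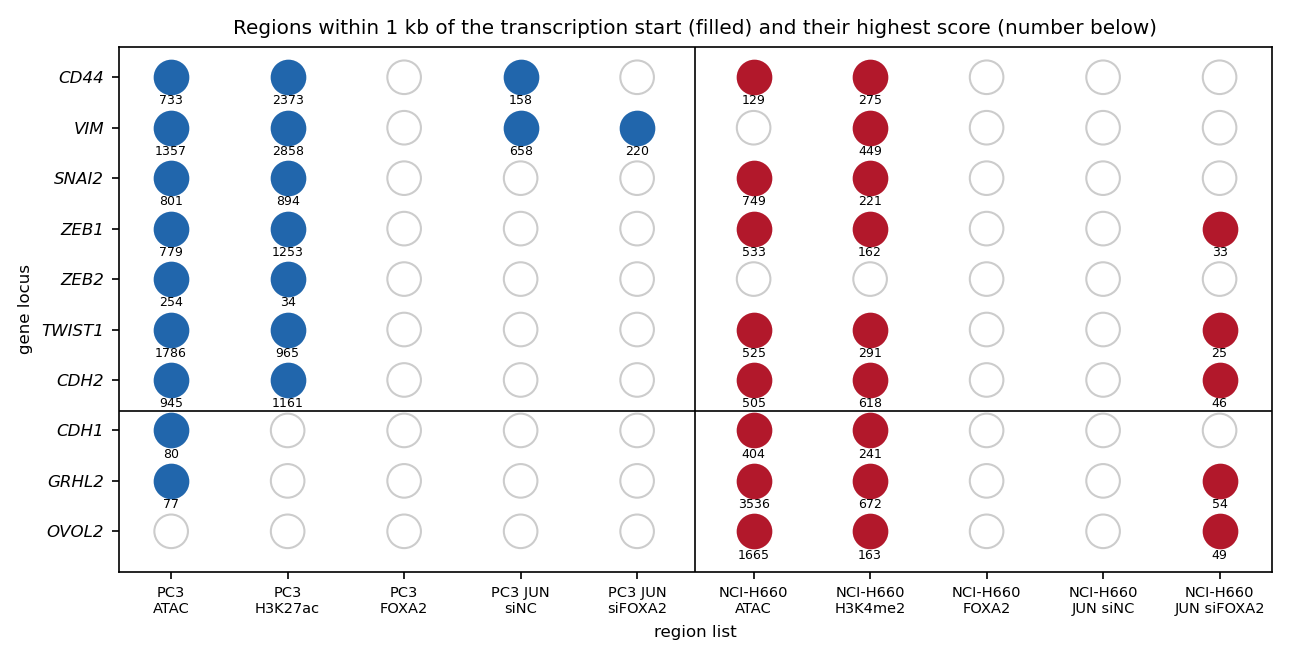
Regions within 1 kb of the start of each gene (rows) in 10 lists (columns, PC3 in blue and NCI-H660 in red). Filled circles mark a region and the number below is its highest score. PC3 H3K27ac is filled for the 7 mesenchymal genes and open for CDH1, GRHL2 and OVOL2, and the FOXA2 column shown for each line is open at every start.

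Over the whole loci, PC3 had 226 ATAC regions and NCI-H660 had 91, and each of the 10 loci had at least 1 in either line, as did 99.1% and 95.9% of all genes. The number of ATAC regions was lower in NCI-H660 at every locus, from 51 against 23 at GRHL2 to 16 against 2 at SNAI2. The whole NCI-H660 list was also shorter (99959 against 210960 regions). The mesenchymal loci held 0.0574% of the PC3 list and 0.0500% of the NCI-H660 list, and the epithelial loci 0.0498% and 0.0410%. Of the 226 PC3 regions 49 overlapped one of NCI-H660 (21.7%, 16.8 to 27.5) against 21.5% in the whole list. H3K27ac regions numbered 109 in PC3, with at least 1 at 10 loci (92.5% of genes), and H3K4me2 regions 66 in NCI-H660, also at 10 (94.7%). OVOL2 had the fewest H3K27ac regions (3) beside 32 ATAC regions in PC3.

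FOXA2 lay at most of these loci in both lines. Within 1 kb of a start it was listed at 0 of the 10 genes in the vehicle list of either line that was paired with the inhibitors, where 2.78% of all genes in PC3 and 1.97% in NCI-H660 had such a region. The other FOXA2 ChIPs had one at GRHL2 (score 101) and OVOL2 (63) in the first, against 15.1% of genes, and at VIM (34) and GRHL2 (55) in the second, against 11.9%. In vehicle-treated PC3 cells 27 regions fell at 9 loci, all but SNAI2, where 54.1% of all genes had at least 1 region. The median was 9.99 regions per Mb against 5.10 over all genes. In vehicle-treated NCI-H660 cells 21 regions fell at 8 loci, all but CD44 and SNAI2, against 37.6% of genes, with a median of 5.06 per Mb against 0. GRHL2 held the most in both, 8 in PC3 and 7 in NCI-H660. The 1-Mb bin of its start was dense in other lists too. In NCI-H660 it had 19 FOXA2 regions against a genome median of 3 per bin (rank 8 of 3113 bins) and 89 ATAC regions against 32.0. In PC3 it had 15 FOXA2 regions against 7, 20 JUN regions against 7 and 174 ATAC regions against 60. DNA copy number there was not analysed here. The other FOXA2 ChIPs had 116 and 88 regions at the loci and lay at all 10 genes, where 86.5% and 82.9% of all genes had at least 1. Each overlapped all 27 PC3 vehicle regions, against 92.5% and 90.8% of the whole vehicle list. In the wider list FOXA2 lay at 11 of 14 mesenchymal and 11 of 18 epithelial genes in PC3, and at 6 and 10 in NCI-H660.

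**Figure D2:**
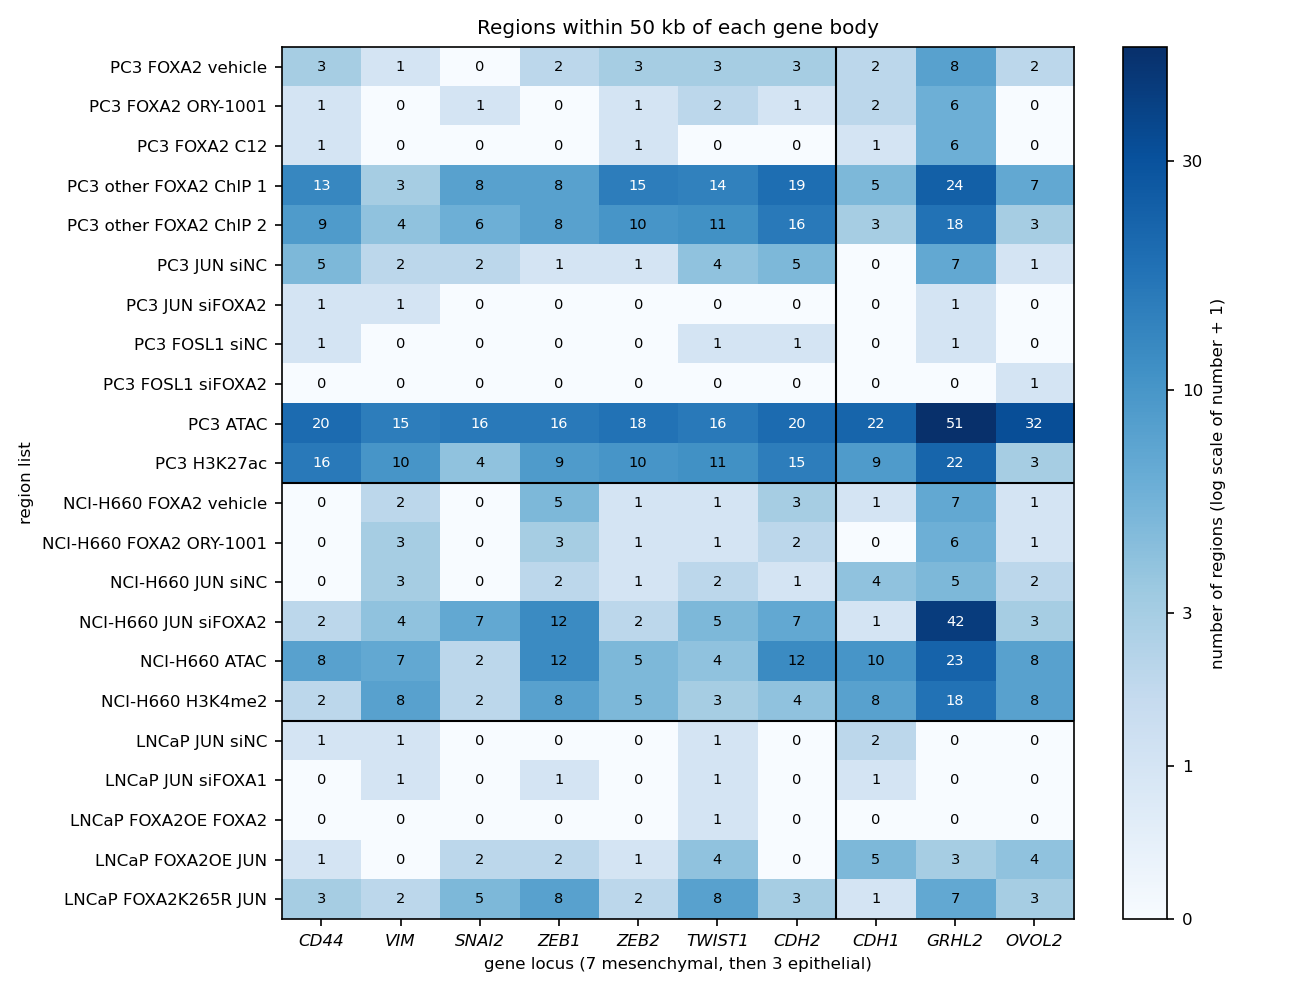
Number of regions within 50 kb of each gene body (columns, the 7 mesenchymal then the 3 epithelial genes) in each of the 22 lists (rows, by cell line), coloured on a log scale. GRHL2 has the highest FOXA2 count in PC3 (8) and NCI-H660 (7), and the NCI-H660 siFOXA2 JUN list holds 42 regions there.

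Among the mesenchymal genes, the highest-scoring PC3 FOXA2 region at CD44 was chr11:35282135-35282545, 122 kb past the CD44 start and over an exon of SLC1A2, a glutamate transporter gene, with a score of 771 (rank 1262 of the list). The regions closer to CD44 scored 115 and 86. VIM had 1 region, at chr10:17255894-17256315 and 14.1 kb upstream of the start (score 333), and NCI-H660 had a FOXA2 region of score 77 at the same place. At TWIST1 the top region was in an intron at chr7:19100612-19101014 (312), at CDH2 in an intron at chr18:25576820-25577239 (332) and at ZEB2 in an intron at chr2:145195196-145195595 (210). ZEB1 had 2 weak PC3 regions of scores 112 and 34, both intronic. In NCI-H660 the order was different. ZEB1 had 5 regions, the best at chr10:31663141-31663442 in an intron (416). 0 of the 5 overlapped a region of the PC3 vehicle list that was paired with the inhibitors. Those at chr10:31648958-31649176 (score 49) and chr10:31801079-31801581 (44) overlapped the second and the first of the other FOXA2 ChIPs, respectively. ZEB2 had 1 at chr2:145222340-145222643 (327), and CDH2 had 3, the best at chr18:25734266-25734572 (267). CD44, with 3 FOXA2 and 20 ATAC regions in PC3, had 0 FOXA2 and 8 ATAC regions in NCI-H660.

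Among the epithelial genes, GRHL2 carried the strongest FOXA2 region of all the loci in each line, but not at the same place. In PC3 it was intronic, chr8:102619838-102620593, 116 kb from the start, with a score of 2155 (rank 97 of 24038). NCI-H660 had a region of score 260 there. In NCI-H660 the strongest was 25.2 kb upstream at chr8:102479262-102479675, with a score of 1267 (rank 112 of 11886), and PC3 had a region of score 211 at that place. At CDH1 FOXA2 bound the intron 7.67 kb from the start in both lines, at chr16:68778713-68779026 with a score of 471 in PC3 and at chr16:68778736-68778974 with 181 in NCI-H660. Including JUN, ATAC and marks this place was in 13 of the 22 lists. OVOL2 had regions with scores of 150 and 68 in PC3, where the list median was 150, and of 28 in NCI-H660. The other FOXA2 ChIPs scored 526 and 375 at the place of the first.

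**Figure D3:**
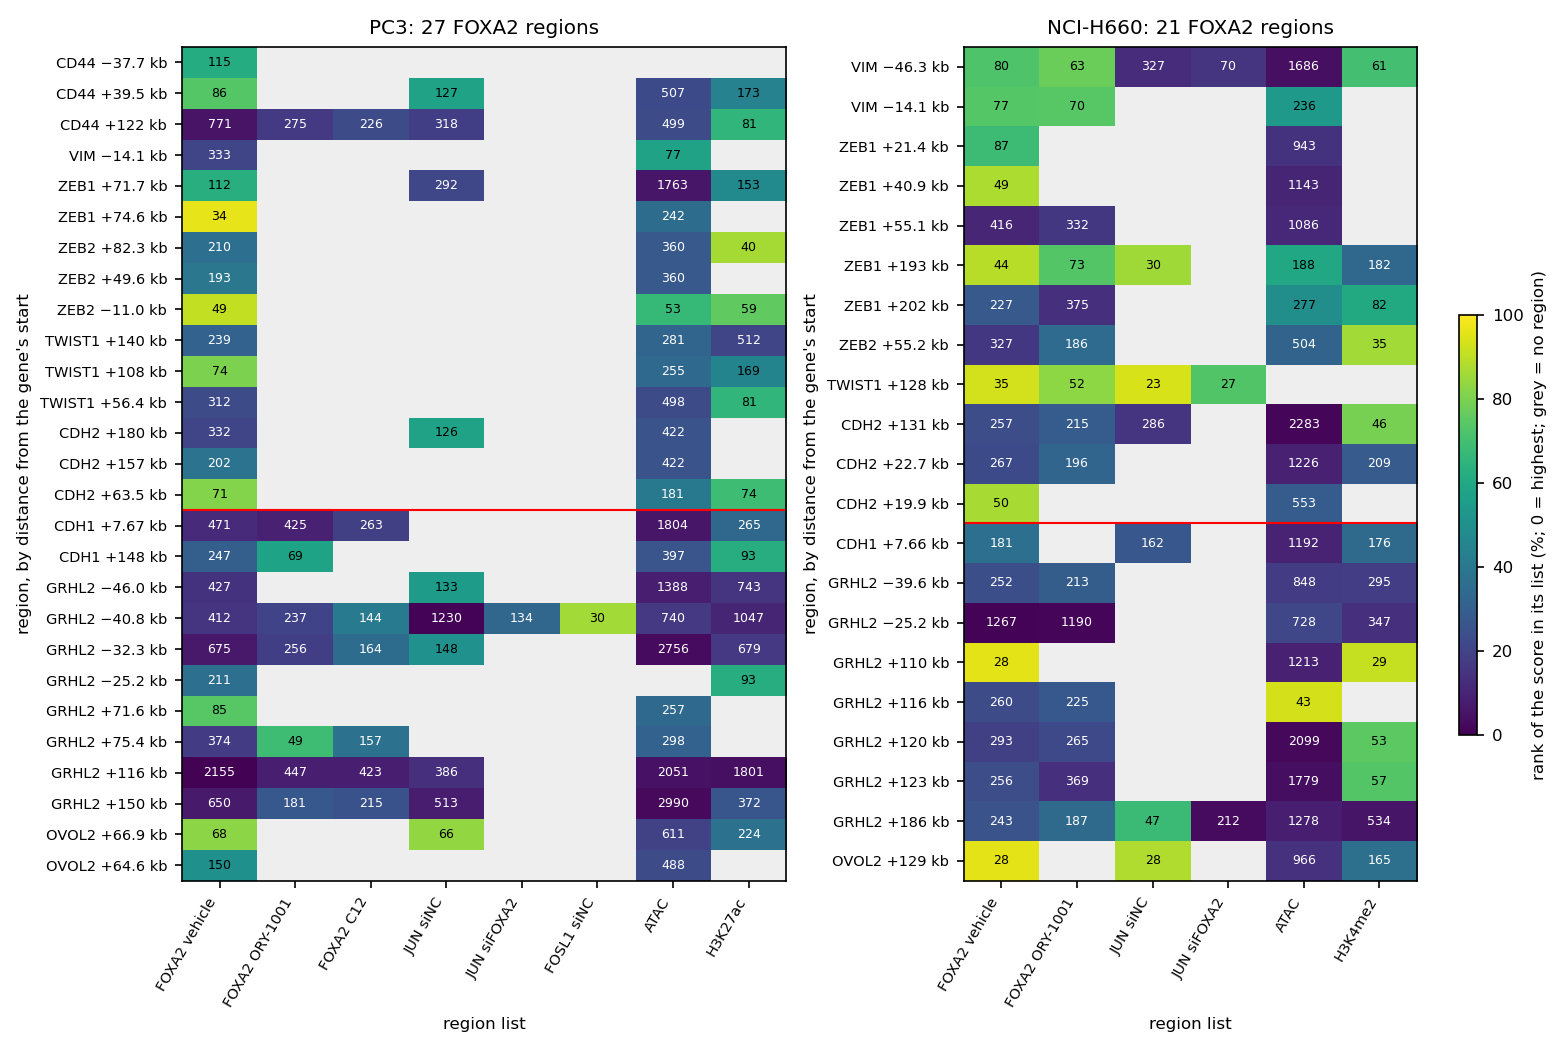
Every vehicle FOXA2 region at the loci (rows, named by gene and distance from its start, mesenchymal above the red line) in the lists of the same line (columns). Numbers are the score of the overlapping region, colour is the rank of that score in its list, and grey is no region. In PC3 1 of the 15 mesenchymal regions has an entry in the ORY-1001 column, against 7 of the 12 epithelial regions.

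The lines mostly used different FOXA2 sites at these genes. An NCI-H660 FOXA2 region was found at 4 of the 27 PC3 regions (14.8%, 5.92 to 32.5), 1 at VIM, 1 at CDH1 and 2 at GRHL2, against 11.1% of the whole PC3 list. As a share of the 21 NCI-H660 regions these were 19.0% (7.67 to 40) against 22.5%. Open chromatin went with the line: 25 of 27 PC3 FOXA2 regions overlapped PC3 ATAC (92.6%, whole list 89.3%) and 5 overlapped NCI-H660 ATAC (18.5%, whole list 22.6%), while 20 of 21 NCI-H660 FOXA2 regions overlapped NCI-H660 ATAC (95.2%, whole list 90.9%) and 6 overlapped PC3 ATAC (28.6%, whole list 35.2%). H3K27ac covered 18 of the 27 in PC3 (66.7%, whole list 58.7%) and H3K4me2 14 of the 21 in NCI-H660 (66.7%, whole list 62.7%). In each of these shares the members' interval held the whole-list value, so none was shown to be particular to the loci.

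JUN was listed under siNC at 9 of 10 loci in PC3 (28 regions, 62.8% of all genes with at least 1) and at 8 of 10 in NCI-H660 (20 regions, 66.2% of genes). The gene left out in PC3 was CDH1, which had 4 JUN regions in NCI-H660. Those left out in NCI-H660 were CD44 and SNAI2, which had 5 and 2 in PC3. In PC3 the strongest were 40.6 kb upstream of GRHL2 at chr8:102463860-102464300 (score 1230), in a CD44 intron at chr11:35188186-35188578, 27.7 kb from the start (1118), and over the 5′ UTR of VIM at chr10:17270331-17270703 (658). JUN lay at the promoters of CD44 (score 158) and VIM in PC3, where 8% of all genes had one, and at 0 of the 10 promoters in NCI-H660, where 19.8% did. In NCI-H660 the strongest was the CDH1 intron region at chr16:68790115-68790569 (1169, rank 267), followed by chr8:102486417-102486852, 18.0 kb upstream of GRHL2 (693). Between the lines 2 of the 28 PC3 JUN regions were shared with NCI-H660 (7.14%, 1.98 to 22.6, whole list 12.8%), 1 upstream of GRHL2 and 1 near TWIST1. FOSL1, profiled in PC3 only, had 4 regions at CD44, TWIST1, CDH2 and GRHL2 (17.4% of genes had at least 1), with scores of 73, 32, 22 and 30. All 4 overlapped JUN (lower bound 51.0%), against 66.9% of the whole FOSL1 list.

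JUN and FOXA2 met at 10 of the 27 PC3 FOXA2 regions (37.0%, 21.5 to 55.8) against 44.3% in the whole list, and at 7 of the 21 in NCI-H660 (33.3%, 17.2 to 54.6) against 36.4%. GRHL2 had 5 of the 10 in PC3, CD44 had 2, and ZEB1, CDH2 and OVOL2 had 1 each, whereas VIM, ZEB2, TWIST1 and CDH1 had none. In NCI-H660 the 7 were spread over VIM, ZEB1, TWIST1, CDH2, CDH1, GRHL2 and OVOL2 with 1 each. AP-1 motifs were in 6 of the 27 PC3 FOXA2 regions (22.2%, 10.6 to 40.8), at CD44, ZEB1, ZEB2, TWIST1, CDH2 and GRHL2, against 26.4% of the list and 2.93% of windows 2 kb away. In NCI-H660 they were in 0 of 21, which allows a share of up to 15.5%, against 6.30% of that list. Forkhead motifs were in 22 of 27 (81.5%) and 17 of 21 (81.0%), against 35.8% and 33.2% of windows nearby. Of the PC3 JUN regions 15 of 28 held an AP-1 motif (53.6%, 35.8 to 70.5), and of the NCI-H660 JUN regions 3 of 20 (15%, 5.24 to 36.0), where the whole lists had 49.5% and 13.8%. The motif contents of these loci thus lay near those of the lists as a whole.

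One place near TWIST1 recurred without open chromatin. It lies in an intron of HDAC9, a histone deacetylase gene, 128 kb from the TWIST1 start at about chr7:19028875-19029158, and was in 10 lists: FOXA2 in NCI-H660 under vehicle and ORY-1001, in PC3 under ORY-1001 and in FOXA2OE, JUN in PC3 under siNC, in NCI-H660 under both siRNAs and in LNCaP under siNC and siFOXA1, and FOSL1 in PC3. It was in neither ATAC list and neither mark list, and held 0 AP-1 and 0 forkhead motifs. Its scores were 41 and below in the lists under siNC or vehicle that have scores. They were 27 for NCI-H660 JUN under siFOXA2, 52 for NCI-H660 FOXA2 under ORY-1001, 75 for PC3 FOXA2 under ORY-1001 and 98 for LNCaP JUN under siFOXA1. The TWIST1 FOXA2 region of NCI-H660, its overlap with JUN, the TWIST1 region shared by PC3 and NCI-H660 JUN, the TWIST1 FOSL1 region and the sole FOXA2OE FOXA2 region at the loci all rest on this place. So does the stronger of the TWIST1 regions listed for PC3 FOXA2 under ORY-1001.

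The inhibitor lists address whether FOXA2 stays on these loci when LSD1 is inhibited. In PC3 most FOXA2 regions at the mesenchymal genes were missing from both inhibitor lists, while more of those at the epithelial genes were listed. Under ORY-1001 14 regions were listed at the loci against 27 under vehicle. 8 vehicle regions were kept, meaning overlapped by at least 1 bp (29.6%, 15.9 to 48.5), 19 were lost and 6 were new, and 63.2% of the whole vehicle list was lost. Under C12 9 regions were listed, 7 vehicle regions were kept (25.9%, 13.2 to 44.7) and 20 were lost, against 70.4% lost in the whole list. The inhibitors were given at different doses and share the vehicle list, so they are set side by side and not compared.

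At the mesenchymal loci 1 of 15 PC3 FOXA2 regions was kept under ORY-1001 (6.67%, 1.19 to 29.8) and 1 of 15 under C12 (6.67%, 1.19 to 29.8). It was the region over the SLC1A2 exon at CD44, with scores of 771 under vehicle, 275 under ORY-1001 and 226 under C12. Within 100 kb of the gene bodies 5 of 24 were kept under each (20.8%), and within 20 kb 0 of 12. None of the vehicle regions within 50 kb of VIM, ZEB1, ZEB2, TWIST1 and CDH2 was in either list. At the epithelial loci 7 of 12 were kept under ORY-1001 (58.3%, 32.0 to 80.7) and 6 of 12 under C12 (50%, 25.4 to 74.6). GRHL2 kept 5 of 8 in each list, CDH1 kept 2 of 2 under ORY-1001 and 1 of 2 under C12, and OVOL2 kept 0 of 2. The strongest GRHL2 region had scores of 2155, 447 and 423 under vehicle, ORY-1001 and C12, and the CDH1 region 7.67 kb from the start had 471, 425 and 263. The strongest lost region in either contrast was 46.0 kb upstream of GRHL2, chr8:102458476-102458792, with a score of 427.

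Scores differed between the groups of genes, with a vehicle median of 193 at the mesenchymal and 393 at the epithelial loci, and the kept share of the whole list varied with score. Whole-list regions of the same score deciles as the mesenchymal regions were kept in 34.9% of cases under ORY-1001 and 26.7% under C12. Those matched to the epithelial regions were kept in 54.9% and 51.1%. Within 50 kb the mesenchymal interval (upper bound 29.8) thus lay below the matched value under ORY-1001 and included it under C12. For the 100 kb window, where 20.8% were kept, no matched value is given. This split by gene group was made after the values were seen, the regions of a locus are not independent, and without GRHL2 the epithelial loci had 2 of 4 kept under ORY-1001 and 1 of 4 under C12. New regions under ORY-1001 were mostly weak, with a median score of 35.0. They lay at SNAI2, ZEB2, CDH2 and GRHL2 with 1 each and at TWIST1 with 2. The SNAI2 region scored 114 and the rest 75 or below. The TWIST1 region of score 75 was the recurrent place in an intron of HDAC9 described above, without either motif. Those at SNAI2 and CDH2 and the TWIST1 region of score 35 overlapped both of the other FOXA2 ChIPs. These were thus new only against the vehicle list paired with the inhibitors.

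**Figure D4:**
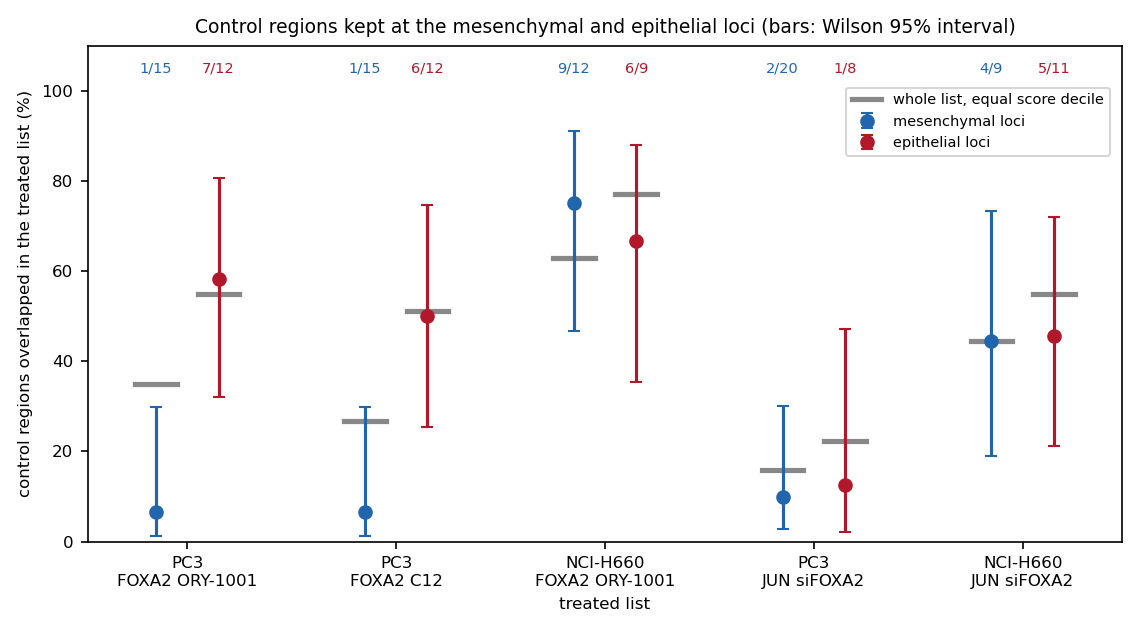
Percent of control regions overlapped by the treated list at the mesenchymal (blue) and epithelial (red) loci, with Wilson 95% intervals, for 5 contrasts of 1 list each, and the whole-list value at equal score decile (grey). Fractions on top are kept over control regions. In PC3 1 of 15 mesenchymal regions stays under either inhibitor, and in NCI-H660 9 of 12 stay under ORY-1001.

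In NCI-H660 most FOXA2 regions at the loci were still listed under ORY-1001. There were 17 regions against 21 under vehicle, 15 were kept (71.4%, 50 to 86.2), 6 were lost and 2 were new, where 31.6% of the whole vehicle list was lost. The mesenchymal loci kept 9 of 12 (75.0%, 46.8 to 91.1) and the epithelial loci 6 of 9 (66.7%, 35.4 to 87.9), with matched whole-list values of 62.8% and 77.1%. VIM kept 2 of 2, ZEB1 3 of 5, ZEB2 1 of 1, CDH2 2 of 3 and GRHL2 6 of 7. CDH1 and OVOL2 kept 0 of 1 each. TWIST1 kept 1 of 1, which was the HDAC9 place, with scores of 35 and 52. The region upstream of GRHL2 had scores of 1267 and 1190. The strongest lost region was that of the CDH1 intron (score 181), the place that PC3 kept. Whether the lines differ in their response was not tested, since each arm is 1 library.

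After siFOXA2, JUN was listed at 3 of these loci in PC3 against 9 under siNC. Of all genes, 16.6% had at least 1 JUN region under siFOXA2 against 62.8% under siNC. The share of all genes with fewer regions was not counted. The number of JUN regions was 28 under siNC and 3 under siFOXA2, with fewer at 9 loci and 0 in both at CDH1. The whole list was shorter as well (23890 and 4081 regions), and the log2 ratio was −3.22 at the loci against −2.55 in the whole list. 3 regions were kept (10.7%, 3.71 to 27.2) and 25 lost, where the whole list lost 86.6%. The kept regions were those of the CD44 intron (scores 1118 and 250), the VIM 5′ UTR (658 and 220) and 40.6 kb upstream of GRHL2 (1230 and 134). Each of the 3 holds an AP-1 motif, as did 42.1% of the whole siFOXA2 list, and they were the 3 highest-scoring under siNC. All 3 overlapped FOXA2 in at least 1 vehicle list, the GRHL2 region in all 3 PC3 lists, the CD44 intron region in the first of the other FOXA2 ChIPs only and the VIM region in the second only. The strongest lost region was over a coding exon of CD44 at chr11:35236281-35236707 (538). For FOSL1 0 of 4 regions were kept (upper bound 49.0%), where 93.1% of the whole list was lost, and 1 new region of score 13 lay at OVOL2. AP-1 motifs were in 35.1% of the siNC FOSL1 list but, as given above, were no more frequent in the siFOXA2 list than in windows nearby.

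In NCI-H660 the JUN list under siFOXA2 was longer, and the loci followed it. There were 20 regions at the loci under siNC and 85 under siFOXA2, a ratio of 4.25 against 3.23 for the whole lists (18401 and 59452 regions). 9 loci had more and CDH1 had fewer (4 and 1). All 10 loci had at least 1 region under siFOXA2 against 8 under siNC. Of all genes, 83.5% did under siFOXA2 against 66.2% under siNC. ZEB1 went from 2 to 12, SNAI2 from 0 to 7, CDH2 from 1 to 7, and GRHL2 from 5 to 42. Of the 20 siNC regions 9 were kept (45%, 25.8 to 65.8) and 11 lost, where 52.0% of the whole list was lost. The kept ones included the CDH1 region 19.1 kb from the start, and the strongest lost one was in a GRHL2 intron at chr8:102616388-102616761 (554). The 76 new regions had a median score of 38.5, 18 overlapped NCI-H660 ATAC and 3 held an AP-1 motif. Of all 85 siFOXA2 regions at the loci 29.4% overlapped ATAC, near the 31.5% of the whole siFOXA2 list. The 9 that matched an siNC region had a median score of 136, and 7 overlapped ATAC. Of the new regions 39 were at GRHL2. High numbers extended beyond the gene. The 1-Mb bin that holds the GRHL2 start had 131 siFOXA2 JUN regions, the 3 bins on each side had 109 to 155, and the genome median was 13 per bin. In the siNC list the same bin had 30 and its neighbours 15 to 50, against a median of 4.00. Promoter JUN regions, 0 under siNC, were listed under siFOXA2 at ZEB1, TWIST1, CDH2, GRHL2 and OVOL2 with scores of 25 to 54, and 34.9% of all genes had one in that list.

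**Figure D5:**
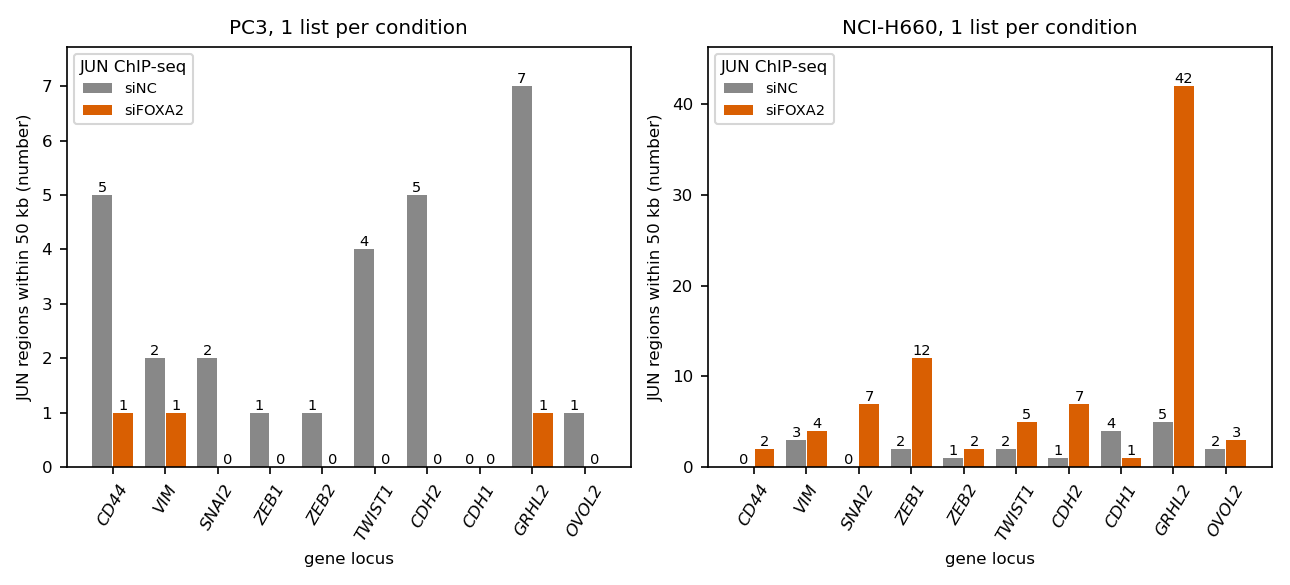
Number of JUN regions within 50 kb of each gene under siNC (grey) and siFOXA2 (orange) in PC3 (left) and NCI-H660 (right), on separate linear axes from 0, with 1 list per condition. PC3 has fewer at 9 of 10 loci under siFOXA2 and NCI-H660 has more at 9 of 10, with CDH1 the exception. Of all genes, the share with at least 1 region is 62.8% and 16.6% in PC3 and 66.2% and 83.5% in NCI-H660, under siNC and siFOXA2.

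LNCaP cells under siNC had 5 JUN regions at these loci, 2 at CDH1 and 1 each at CD44, VIM and TWIST1, and 13.4% of all genes had at least 1. Both CDH1 regions lay where NCI-H660 JUN did, in the intron 7.64 and 19.1 kb from the start, and PC3 had no JUN region at CDH1. Under siFOXA1 4 regions were listed, 2 of the 5 were kept (40%, 11.8 to 76.9) and 3 lost, against 50.4% lost in the whole list. The kept ones were the CDH1 region 19.1 kb from the start (score 107 under siFOXA1) and the place in HDAC9. FOXA2OE JUN had 22 regions at 8 loci (79.5% of genes had at least 1), with 5 at CDH1, 4 each at TWIST1 and OVOL2, and 0 at VIM and CDH2. FOXA2K265R JUN had 42 at 10 loci (85.0% of genes), with 8 each at ZEB1 and TWIST1 and 1 at CDH1. Medians were 8.62 and 16.9 per Mb, against 9.75 and 17.6 over all genes. AP-1 motifs were in 0 of the 22 and 3 of the 42, and the region identifiers name different processing folders for these lists, so condition and processing folder cannot be told apart. Of FOXA2 in FOXA2OE, the HDAC9 place was the only region at the loci.

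The wider genes gave a like picture of the siRNA lists in PC3, where JUN had 38 regions at the 14 mesenchymal and 48 at the 18 epithelial genes under siNC and 5 and 6 under siFOXA2. In NCI-H660 these were 14 and 54 under siNC and 31 and 76 under siFOXA2. FOXA2 in PC3 had 29 regions at the mesenchymal and 27 at the epithelial genes under vehicle, 12 and 16 under ORY-1001, and 8 and 7 under C12. At the member loci these numbers were 15 and 12 under vehicle, 6 and 8 under ORY-1001, and 2 and 7 under C12. The split of the members was thus not seen in the wider numbers under C12, and under ORY-1001 it was smaller. Kept shares are not given for the wider genes. Their regions were summed gene by gene, so a region near several genes counts for each. CDH3 lies in the CDH1 window, so its regions can repeat those of a member. In NCI-H660 H3K4me2 lay at 11 of the 14 mesenchymal genes (64 regions) and 18 of the 18 epithelial genes (176 regions), with medians of 42.1 and 68.2 per Mb against 41.0 over all genes.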

How the data were processed

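The authors aligned reads with bwa 0.7.17-r1188 to hg19, used SAMtools 1.9 and called regions with MACS2 2.1.4. Settings, control libraries and pooling were not given in the sources used here. They deposited 1 list of intervals per sample. In 20 lists the authors deposited a whole-number score, read here as 10 times −log10 q because its minimum was 13 in most lists, and 2 lists held no score. The lists hold no read numbers, so depth is unknown and intervals cover counting error only. The H3K27ac sample is titled vehicle although its deposited name reads siNC, and the FOXA2K265R sample carries the FOXA2OE line in another label, so its title was followed.

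The members and lists were chosen with earlier results of these data known. Regions within 50 kb of a gene body (GENCODE 44 on hg19) were counted with Python 3.11.15 and numpy 2.4.6, and overlaps needed at least 1 bp. Intervals are Wilson 95% (scipy 1.17.1). Named were the highest-scoring FOXA2 and JUN region of each gene and line and the highest-scoring kept and lost region of each contrast. Other regions were named after their values were seen. The wider list holds SNAI1, TWIST2, PRRX1, FOXC2, FN1, CDH11, ITGA5, SPARC, TGFBI, LOXL2, COL1A1, COL5A2, ACTA2 and THY1, and OVOL1, GRHL1, GRHL3, ESRP1, ESRP2, EPCAM, CDH3, KRT8, KRT18, KRT19, CLDN4, CLDN7, DSP, ELF3, PKP3, TJP1, RAB25 and ST14, and 1 further gene of it is not reported here. The equal-decile value averages, over the regions of a locus set, the kept share of the control list in the same score decile. Functions were tested on simulated data. Alternatives were other windows, a score minimum, equal numbers of the highest-scoring regions, reciprocal overlap, removal of shared places, the other FOXA2 ChIPs and leaving out GRHL2. Windows could hold neighbouring genes.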

Additional observations from a re-analysis of the deposited data

Results flagged for a closer look

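The number of JUN regions at the loci moved in opposite directions under siFOXA2 in PC3 and NCI-H660, with a log2 ratio over siNC of −3.22 in PC3 and 2.09 in NCI-H660. Both whole lists moved the same way as the loci (−2.55 and 1.69). Each arm was 1 list, and the difference between the lines was not tested. AP-1 motifs were in 3 of the 3 PC3 and 4 of the 85 NCI-H660 siFOXA2 regions at the loci, against 42.1% and 4.99% of the whole siFOXA2 lists. The whole lists thus differed in the same direction.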

How the results depend on the processing

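Of 102 alternatives over 16 results, 92 left the value within its interval and 10 moved it. The 92 are not a measure of stability. Removal of shared places took out no control region at the loci, so it could not change a value. Leaving out GRHL2 could not change LNCaP JUN, which had no region there. The results on 4 FOSL1 and 5 LNCaP JUN regions had wide intervals (0 to 49.0% and 11.8 to 76.9%). Without the GRHL2 locus, an alternative chosen after seeing the data, the kept share of PC3 FOXA2 regions was 15.8% under ORY-1001, 10.5% under C12 and, for the epithelial loci under C12, 25.0%. With the same number of regions taken from the top of both lists the kept share was 53.8% under C12, 75.0% for the epithelial loci under C12, and 50% for PC3 JUN under siFOXA2. Within 20 kb of the gene bodies the kept share at the mesenchymal loci was 0% (0 of 12) under either inhibitor, and within 100 kb it was 20.8% (5 of 24) under either, against 46.7% and 40% at the epithelial loci under ORY-1001 and C12. With the first of the other FOXA2 ChIPs as the PC3 FOXA2 list, the share overlapping JUN was 18.1% and that overlapping NCI-H660 FOXA2 4.31%. Where no value above shows it, the cause was not tested. The number of FOXA2 regions in the other FOXA2 ChIPs was 116 and 88 (mean 102.0). No paired analysis was possible because each group compared had 1 list and the labels of those lists give no replicate number. With 1 list per condition and unknown depth, a region missing from a list may lie just under its threshold.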
